A study of Homo sapiens with 16 samples.

Results

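The genes described here are 10 members of the noncanonical WNT arm and its antagonists: the ligands WNT5A and WNT5B, the receptors ROR1, ROR2, RYK, FZD2 and FZD7, the secreted antagonists DKK1 and DKK3, and the intracellular modulator DACT1. They were taken by gene name from tables of exon counts of 16 libraries, and all 10 names were found among the 60606 genes counted. The names were chosen by pathway with earlier results of these libraries in view, and which measured values were used is not recorded, so every comparison is treated as used for the choice. The log2 changes and adjusted p-values given for them therefore place each gene among all genes tested, and are no independent evidence.

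Polyadenylated RNA was sequenced from a pair of established human clear cell renal carcinoma lines, 786-O and A498, to ask what loss of SETD2, the histone H3 methyltransferase that marks transcribed gene bodies, does in these cells. In 786-O, 4 groups of 3 libraries each were SETD2 KO cells in DMSO, SETD2 WT cells in DMSO, KO cells in 100 nM A1331852 and WT cells in 100 nM A1331852, all harvested after 72 h. A1331852 inhibits the pro-survival protein BCL-XL, and DMSO is its vehicle. In A498, 2 libraries were labelled SETD2 deficient and 2 SETD2 add-back, both with no treatment. Both lines are known to lack functional VHL, so every group shares that loss. The labels name 1 KO and 1 WT state of 786-O, with no clone or editing site, and leave unsaid whether each replicate was its own culture. The p-values thus speak of the spread between libraries only, which may be technical. All counts come from bulk cultures, in which fewer cells of a kind and less RNA per cell cannot be told apart.

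WNT5A and WNT5B are secreted, lipid-modified ligands that act mostly without beta-catenin, through frizzled receptors such as FZD2 and FZD7 together with the co-receptors ROR1, ROR2 and RYK. Binding is relayed by dishevelled to JNK and to calcium signals that steer cell polarity and movement. DKK1 blocks the beta-catenin arm by binding the co-receptors LRP5 and LRP6, DKK3 is a divergent relative that is often silenced in tumours, and DACT1 binds dishevelled inside the cell. ROR2 has been studied in renal carcinoma as a receptor that favours tumour growth.

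Libraries held between 14172118 and 36037616 counts. Batches follow the prefix of the library name. The A1331852 libraries and replicate 3 of both DMSO groups formed batch 1, the other DMSO libraries batch 2, and the A498 libraries batch 3. What the libraries of a batch share beyond this prefix is not stated here. SETD2 itself had 30.0, 27.9 and 30.0 CPM (counts scaled to library size with TMM factors) in KO DMSO libraries, against 68.6, 70.9 and 65.0 in WT DMSO libraries, and 29.4, 47.7 and 52.5 CPM in KO A1331852 libraries, against 71.2, 68.6 and 63.0 in WT A1331852 libraries. KO and WT did not overlap, and the edgeR quasi-likelihood test with Benjamini-Hochberg adjustment called SETD2 lower in KO cells in DMSO (log2 change -1.21 ± 0.18 SE, adjusted p = 0.000739) and in A1331852 (-0.65 ± 0.18, adjusted p = 0.0168). In A498, SETD2 had 41.1 and 59.4 CPM in the libraries labelled deficient and 44.9 and 53.8 in those labelled add-back, so its level did not separate these labels. DMSO replicates 1 and 2 of each genotype differed by more than sampling noise, with a median chi-square per gene of 0.947 in KO and 1.05 in WT, against 0.455 from sampling alone. The means were 3.32 and 3.86, against 1 from sampling. They were kept as separate libraries. Replicate 3, from batch 1, stood much farther from them, with medians between 10.5 and 15.2. Of 12 renal carcinoma markers, 8 or 9 reached 1 CPM in each group. The hypoxia-induced CA9 and the brush border receptor LRP2 were at 0 in both WT groups of 786-O, and CA9 stayed under 1 CPM in every other group. Leukocyte markers summed to at most 4.41 CPM and endothelial markers to at most 2.58 CPM per library.

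Per kilobase of exon, which allows genes to be set side by side, the receptors FZD7, FZD2 and RYK and the antagonist DKK3 were the better expressed members in most groups, and WNT5B, DACT1 and DKK1 the lowest. In KO DMSO cells the mean levels were 14.3 ± 3.4 CPM per kb for FZD7, 10.2 ± 0.5 for FZD2, 10.1 ± 0.3 for DKK3, 7.31 ± 1.56 for RYK, 3.50 ± 0.65 for ROR1, 1.07 ± 0.16 for WNT5A and 0.663 ± 0.014 for ROR2 (SD, n = 3). FZD2 and DKK3, neighbours in that order, did not differ beyond their spread. In WT DMSO cells ROR2 stood between RYK and ROR1 at 7.10 ± 1.55 CPM per kb, within the spread of both (7.40 ± 1.53 for RYK and 6.63 ± 0.99 for ROR1), and DKK3 stood under ROR1 at 5.71 ± 0.25 (SD, n = 3). In A498 the order was FZD2, FZD7, DKK3 and RYK in the deficient libraries, with ROR2 near 0. Over the 6 groups the mean log2 CPM of ROR2 ranged over 8.14, that of WNT5B over 3.80 and that of DACT1 over 2.81, while FZD7 ranged over 0.30 and RYK over 0.74.

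**Figure D1:**
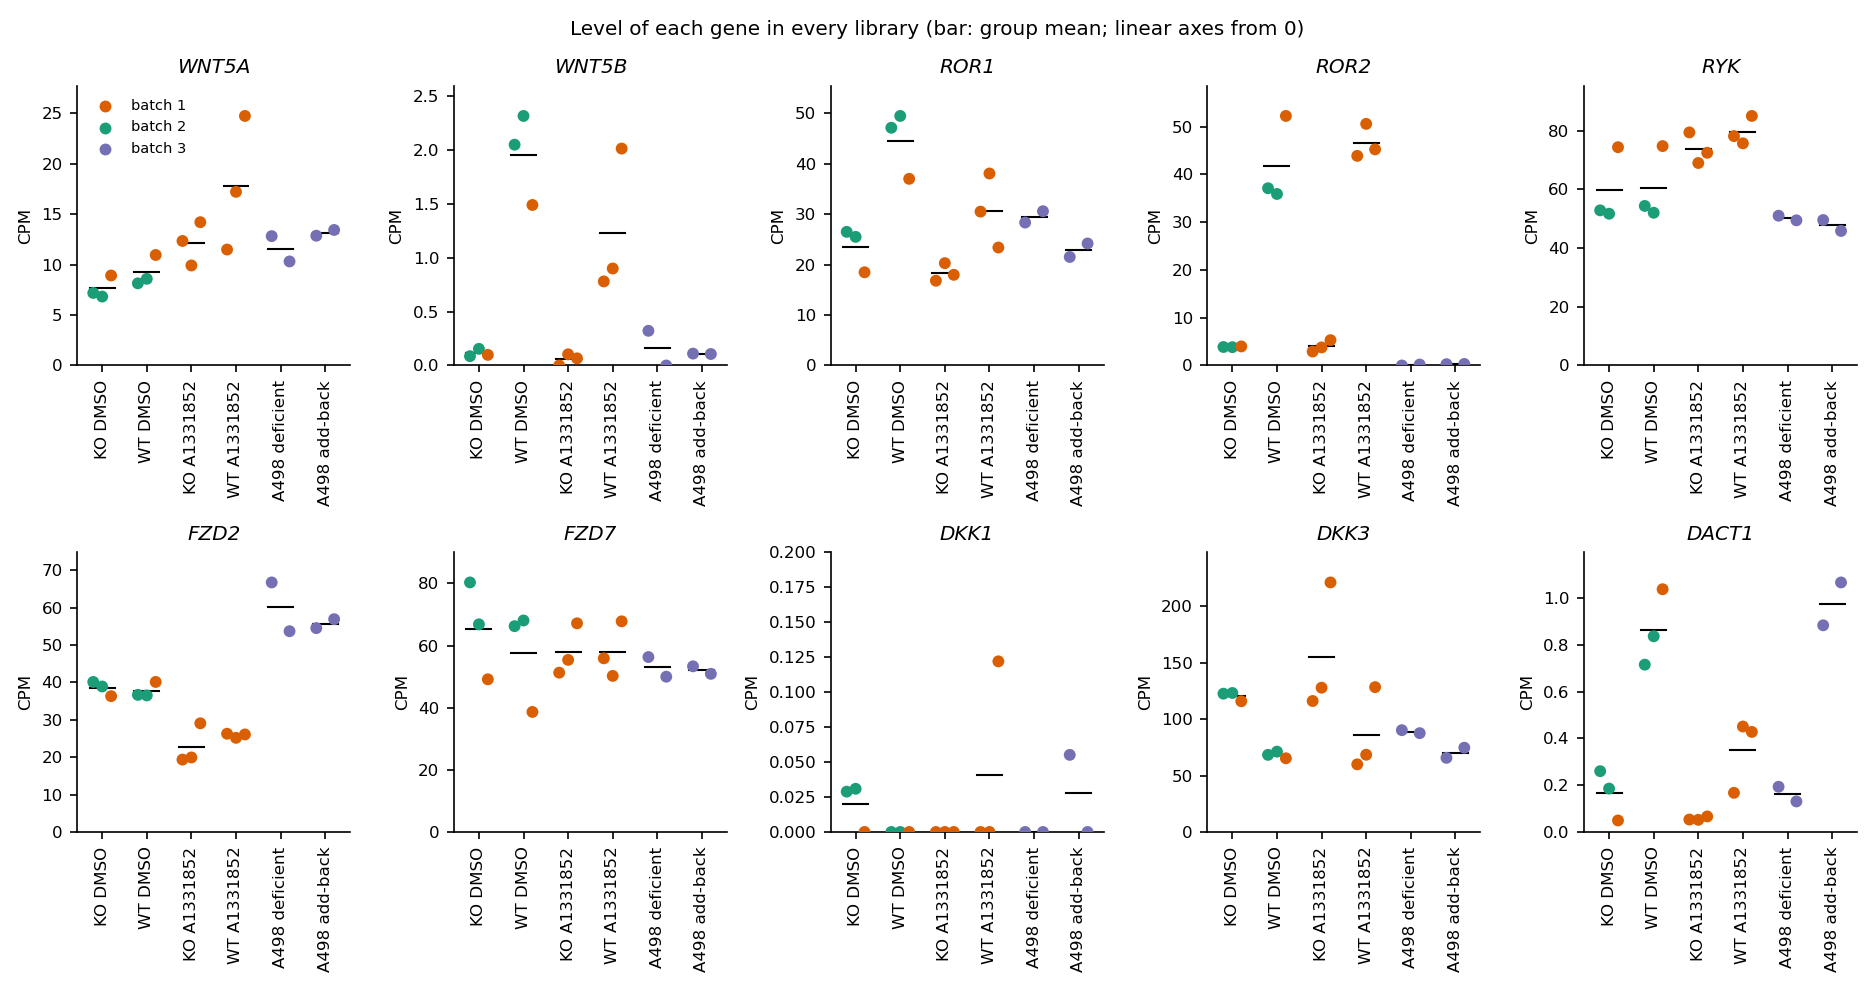
Level of each of the 10 genes in CPM (linear axes from 0) in each of the 16 libraries, 1 point per library coloured by batch, with a bar at the group mean. ROR2 lay between 2.93 and 5.31 CPM in the 6 KO libraries of 786-O and between 35.9 and 52.3 CPM in the 6 WT libraries, and DKK1 had a count in 4 libraries.

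SETD2 KO cells held less ROR2, WNT5B, ROR1 and DACT1 transcript than WT cells in both DMSO and A1331852. In DMSO, 9 of the 10 members had enough counts to be tested, and 4 of the 9 were called lower and 0 higher at an adjusted p under 0.05 (5 in either direction at an unadjusted p under 0.05), where 18.5% of the 16260 genes tested were called in either direction, 10.2% lower and 8.29% higher. In A1331852, 4 of 9 were called lower and 1, DKK3, higher, where 28.2% of genes were called in either direction, 15.0% lower and 13.2% higher. The median log2 change over the tested members was -0.26 in DMSO and -0.55 in A1331852, against -0.02 and -0.01 over all genes. WNT5A, RYK, FZD2 and FZD7 were not called in either comparison. Since earlier results chose the names, nothing is read from these counts. Fibroblast markers, which accompany high WNT5A and ROR2 in mesenchymal cells, summed to 24.4 to 25.1 CPM in KO DMSO libraries and 24.2 to 32.8 in WT DMSO libraries, and to 10.1 to 18.3 CPM in KO A1331852 libraries and 27.9 to 32.6 in WT A1331852 libraries. Of 10 such markers, COL3A1, DCN and PDGFRA were at 0 in all WT A1331852 libraries, COL1A2, COL3A1 and PDGFRA in all WT DMSO libraries and DCN in all KO libraries. Of 5 tested, 1 was called lower in KO cells in DMSO and 3 in A1331852. Their part in the results was not tested.

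**Figure D2:**
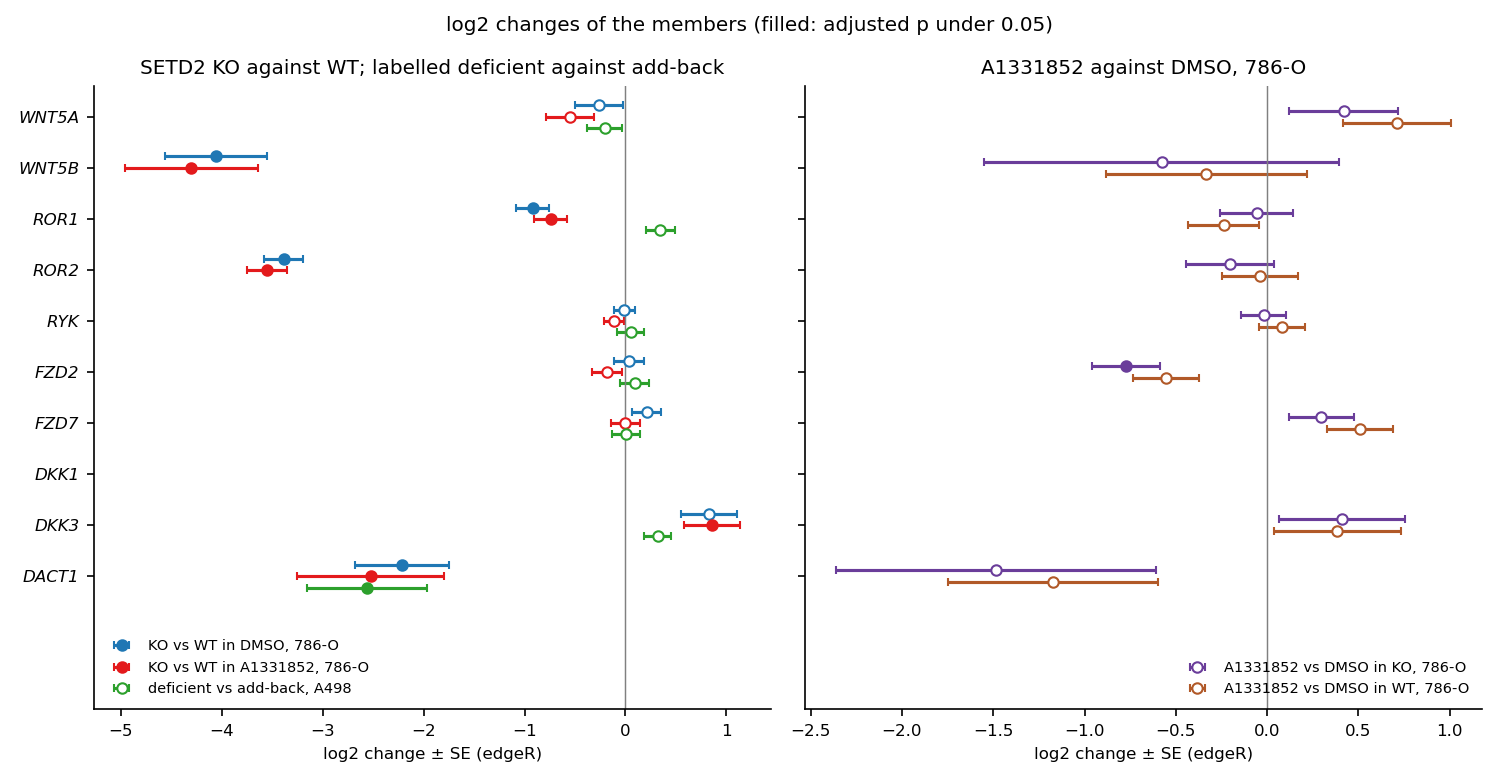
Fitted log2 change with its standard error (edgeR) for each member, for KO against WT 786-O in both treatments and labelled deficient against add-back A498 (left), and for A1331852 against DMSO in KO and WT 786-O (right), with filled points where the adjusted p was under 0.05. ROR2, WNT5B, ROR1 and DACT1 lie left of 0 in both KO against WT comparisons, DACT1 is the filled point of A498, FZD2 in KO cells is the filled point on the right, and DKK1 was not tested in any comparison, nor ROR2 and WNT5B in A498.

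Among the ligands, WNT5A (chromosome 3, 55465715 to 55490539, minus strand, GRCh38) is the prototype of noncanonical signalling. It had 7.19, 6.83 and 8.92 CPM in KO DMSO libraries, against 8.14, 8.59 and 10.9 in WT DMSO libraries. The KO values lay lower on average, with overlap. In A1331852 it had 12.3, 9.91 and 14.2 CPM in KO libraries, against 11.5, 17.2 and 24.7 in WT libraries, and these ranges also overlapped. The log2 change was -0.26 ± 0.24 in DMSO (edgeR adjusted p = 0.507) and -0.55 ± 0.24 in A1331852 (adjusted p = 0.103), so neither was called. With the replicate number as a block, which paired KO with WT libraries, the A1331852 difference was called lower (-0.50 ± 0.18, adjusted p = 0.0475), as it was without WT A1331852 replicate 1 (-0.78, adjusted p = 0.0142).

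WNT5B (chromosome 12, 1529891 to 1647212, plus strand), the close paralogue of WNT5A, was far lower in KO cells. It had 3, 5 and 2 counts in KO DMSO libraries, which is 0.0866, 0.155 and 0.0986 CPM, against 66, 61 and 23 counts in WT DMSO libraries, which is 2.05, 2.32 and 1.49 CPM. In A1331852 it had 0, 2 and 1 counts in KO libraries and 14, 20 and 33 counts in WT libraries. Every KO library lay under every WT library in both treatments. WNT5B stayed under the filter's minimum count of 10 in all KO libraries. It thus entered the tests only through WT libraries, where it was high, and its calls are no support of their own. Summed over libraries, 10 KO counts stood against 150 WT counts in DMSO, and the depth-scaled level in WT was 17.7 times that in KO (95% exact interval 9.37 to 37.7). In A1331852, 3 counts stood against 67, and the level in WT was 21.0 times that in KO (6.89 to 104). These intervals cover counting error only. The fitted log2 change was -4.05 ± 0.51 in DMSO (edgeR adjusted p = 0.000281) and -4.30 ± 0.66 in A1331852 (adjusted p = 0.000671), and for counts this low it depends on the prior count. In A1331852 it was -5.11 without KO replicate 2 and -3.71 without KO replicate 1, and was called in both. Within DMSO, the log2 ratio of mean CPM was -3.92 in batch 1 and -4.18 in batch 2. On the per-kilobase scale WNT5B made up 2.50% ± 1.02 of WNT5A and WNT5B together in KO DMSO cells and 26.6% ± 6.9 in WT DMSO cells (SD, n = 3), and 0.839% ± 0.869 in KO A1331852 cells and 10.2% ± 2.0 in WT A1331852 cells.

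Among the receptors, ROR2 (chromosome 9, 91563091 to 91950228, minus strand), a tyrosine-kinase-like receptor for WNT5A, had the smallest adjusted p of the members. It had 3.87, 3.83 and 3.99 CPM in KO DMSO libraries, against 37.1, 35.9 and 52.3 CPM in WT DMSO libraries, and 2.93, 3.79 and 5.31 CPM in KO A1331852 libraries, against 43.9, 50.6 and 45.3 CPM in WT A1331852 libraries. All 6 KO libraries lay far under all 6 WT libraries. The mean in WT was 10.7 times that in KO in DMSO and 11.6 times in A1331852. ROR2 fell by 3.38 ± 0.19 on the log2 scale in DMSO (edgeR adjusted p = 1.08e-06) and by 3.55 ± 0.20 in A1331852 (adjusted p = 1.07e-06). The log2 ratio was -3.71 within batch 1 and -3.25 within batch 2 of DMSO, and every alternative setting gave between -3.81 and -3.20 over both treatments.

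ROR1 (chromosome 1, 63774017 to 64181498, plus strand), the paralogue of ROR2 that tumours often express again, was lower by a smaller factor. It had 26.5, 25.5 and 18.5 CPM in KO DMSO libraries, against 47.1, 49.5 and 37.0 in WT DMSO libraries, and 16.8, 20.3 and 18.0 CPM in KO A1331852 libraries, against 30.5, 38.1 and 23.4 in WT A1331852 libraries. The KO libraries lay under the WT libraries within each treatment. ROR1 fell by 0.92 ± 0.16 on the log2 scale in DMSO (edgeR adjusted p = 0.00224) and by 0.74 ± 0.16 in A1331852 (adjusted p = 0.00568). Within DMSO, batch 1 alone had 18.5 CPM in KO and 37.0 in WT, and batch 2 means of 26.0 in KO and 48.3 in WT. With the smaller fall of ROR1, the makeup of the pair shifted: per kilobase, ROR2 made up 16.3% ± 3.1 of ROR1 and ROR2 transcript in KO DMSO cells and 51.5% ± 8.9 in WT DMSO cells, and 19.8% ± 4.7 in KO A1331852 cells and 63.8% ± 4.5 in WT A1331852 cells (SD, n = 3).

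The 250 bases before the annotated starts of ROR2 and ROR1 are shown because this receptor pair carries the widest KO to WT difference among well-counted members. The sequences are RefSeq's, build GRCh38.p14, written 5′ to 3′ on each gene's own strand. Capitals mark CTTTGA or CTTTGT on either strand, the core letters of a TCF/LEF motif of the beta-catenin arm.
ROR2 (chr9:91950229-91950478, minus strand): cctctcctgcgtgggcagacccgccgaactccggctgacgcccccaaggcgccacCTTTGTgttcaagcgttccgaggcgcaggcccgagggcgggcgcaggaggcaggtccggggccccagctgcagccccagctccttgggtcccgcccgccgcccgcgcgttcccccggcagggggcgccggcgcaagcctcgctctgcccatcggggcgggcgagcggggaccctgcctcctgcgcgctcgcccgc
ROR1 (chr1:63773767-63774016, plus strand): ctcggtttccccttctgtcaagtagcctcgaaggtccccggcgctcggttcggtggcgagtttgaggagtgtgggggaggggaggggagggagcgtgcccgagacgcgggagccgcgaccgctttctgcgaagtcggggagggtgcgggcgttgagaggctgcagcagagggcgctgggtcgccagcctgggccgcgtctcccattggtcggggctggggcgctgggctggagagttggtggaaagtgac
The ROR2 window held 1 match and the ROR1 window 0, and 22.8% of 35116 such windows over all genes held at least 1. Both windows were rich in G and C, with a share of 78% and 32 CpG for ROR2 and 69.2% and 24 CpG for ROR1, where the median window had 58% and 11 CpG. A match says only that these letters occur there. Of the 10 members, 7 had at least 1 window in the table, and FZD2, FZD7 and DKK3 had none.

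RYK (chromosome 3, 134065303 to 134250859, minus strand), a WNT receptor with an inactive kinase domain, showed no call between genotypes. It had 52.9, 51.7 and 74.4 CPM in KO DMSO libraries, against 54.4, 52.0 and 74.7 in WT DMSO libraries, where replicate 3 of both, from batch 1, was the high one. In A1331852 it had 79.4, 69.0 and 72.5 CPM in KO libraries, against 78.1, 75.7 and 85.0 in WT libraries. The log2 change was -0.01 ± 0.10 in DMSO (edgeR adjusted p = 0.961) and -0.11 ± 0.10 in A1331852 (adjusted p = 0.447).

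FZD2 (chromosome 17, 44557484 to 44561262, plus strand), a frizzled that binds WNT5A, had 40.1, 38.9 and 36.3 CPM in KO DMSO libraries, against 36.7, 36.5 and 40.1 in WT DMSO libraries (log2 change 0.04 ± 0.15, edgeR adjusted p = 0.901). In A1331852 it had 19.4, 19.9 and 29.1 CPM in KO libraries, against 26.3, 25.2 and 26.1 in WT libraries (-0.18 ± 0.15, adjusted p = 0.405). KO replicate 3 was the high library there, and without it FZD2 was called lower in KO cells (-0.39, adjusted p = 0.0331). FZD7 (chromosome 2, 202033855 to 202038441, plus strand), its close paralogue, had 80.3, 66.8 and 49.1 CPM in KO DMSO libraries, against 66.2, 68.1 and 38.6 in WT DMSO libraries, with replicate 3 lowest in both. In A1331852 it had 51.3, 55.4 and 67.2 CPM in KO libraries, against 55.9, 50.2 and 67.8 in WT libraries. The groups overlapped in both treatments, and its log2 change was 0.21 ± 0.14 in DMSO (edgeR adjusted p = 0.353) and 0.00 ± 0.15 in A1331852. Batch 2 alone called both frizzleds higher in KO DMSO cells, FZD2 by 0.15 (edgeR adjusted p = 0.0343) and FZD7 by 0.18 (adjusted p = 0.0256). That fit called 9276 genes, against 3001 in the fit over all 786-O libraries. In batch 2 the FZD7 libraries overlapped between genotypes and the FZD2 libraries did not, while in batch 1 FZD2 was lower in KO. With only the DMSO libraries fitted, FZD7 was also called higher in KO cells (0.22, edgeR adjusted p = 0.0458). Nothing is read from these calls.

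**Figure D3:**
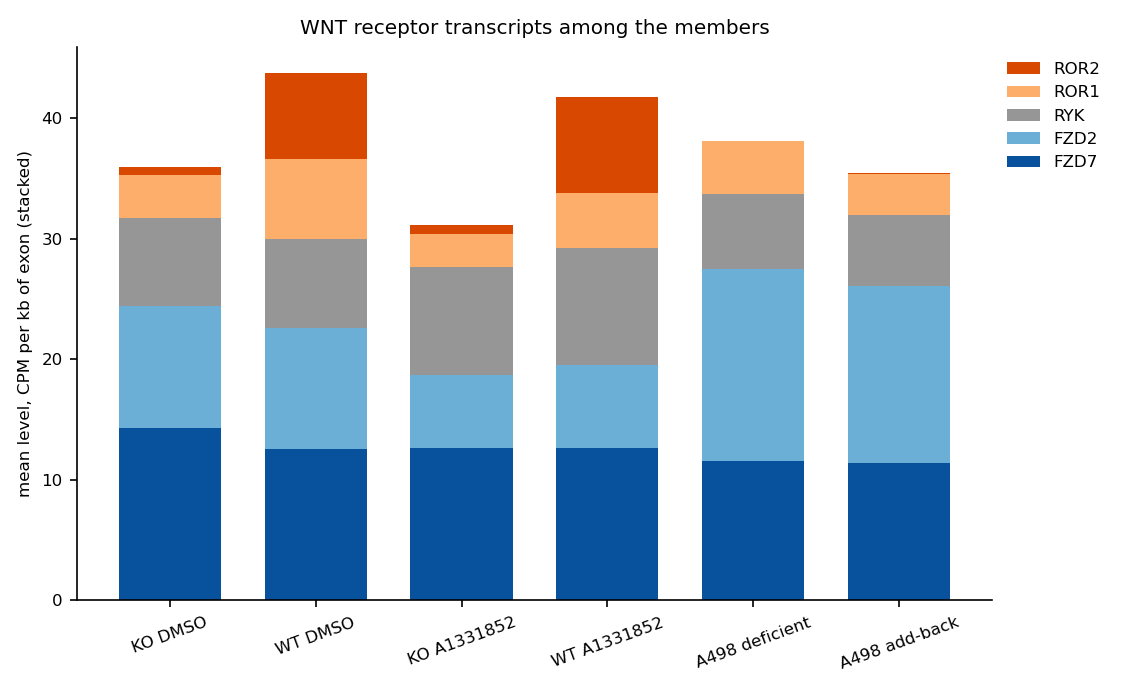
Mean level of the 5 receptor members in CPM per kilobase of exon, stacked, in each of the 6 groups. The ROR2 segment is 0.663 in KO DMSO and 7.10 in WT DMSO cells and is close to 0 in both A498 groups, while the FZD7 segment stays between 11.4 and 14.3.

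Among the antagonists, DKK3 (chromosome 11, 11956207 to 12009769, minus strand) was the member with higher levels in KO cells. It had 122.6, 123.2 and 115.9 CPM in KO DMSO libraries, against 68.4, 71.2 and 65.3 in WT DMSO libraries, with no overlap. The log2 change was 0.83 ± 0.28 and missed the threshold in the fit over all 786-O libraries (edgeR adjusted p = 0.0600). With the replicate number as a block it passed (0.83 ± 0.09, adjusted p = 0.000150), as it did in 4 other settings, and within batches the log2 ratio was 0.83 in batch 1 and 0.82 in batch 2. In A1331852 it had 116, 128 and 221 CPM in KO libraries, against 60.0, 68.5 and 128 in WT libraries. The libraries numbered 3 were the highest of both genotypes, and the WT one reached above the lowest KO ones, so the groups overlapped, although each KO library lay above the WT library of its own number. DKK3 rose by 0.86 ± 0.28 (edgeR adjusted p = 0.0392). With the replicate number as a block the value was 0.88 ± 0.09 (adjusted p = 6.62e-05), and without both libraries numbered 3 it was 0.93 ± 0.11 (adjusted p = 5.47e-05). In the fit with no block the call was lost without KO A1331852 replicate 3 (0.51, adjusted p = 0.153), WT A1331852 replicate 1 (0.66, adjusted p = 0.120) or WT A1331852 replicate 2 (0.72, adjusted p = 0.136). It was also lost with only the 6 libraries compared (adjusted p = 0.119) and with no batch term (adjusted p = 0.0608). DKK1 (chromosome 10, 52314281 to 52318042, plus strand) had 5 counts over all libraries, 1 in each of 2 KO DMSO libraries, 2 in 1 WT A1331852 library and 1 in 1 add-back library of A498, and none in the other 12. A floor of 3 counts over a group corresponds to at most 0.0972 CPM, so no difference in DKK1 was detectable at this depth.

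DACT1 (chromosome 14, 58633967 to 58648321, plus strand), which binds dishevelled and can damp WNT signals, was near the detection limit in KO cells. It had 9, 6 and 1 counts in KO DMSO libraries, against 23, 22 and 16 in WT DMSO libraries, which is 0.260, 0.185 and 0.0493 CPM against 0.715, 0.836 and 1.04 CPM. In A1331852 each KO library had 1 count, against 3, 10 and 7 in WT libraries. The KO libraries lay under the WT libraries in both treatments. DACT1 passed the low-count filter, with its minimum count of 10, only through the WT DMSO libraries, where it was highest. The calls for DACT1 are thus no support of their own. The depth-scaled level in WT was 4.50 times that in KO in DMSO (95% exact interval 2.56 to 8.37) and 6.27 times in A1331852 (1.86 to 32.95). Within DMSO the log2 ratio of mean CPM was -4.40 in batch 1, where KO had 1 count, and -1.80 in batch 2. The fitted log2 change was -2.21 ± 0.46 in DMSO (edgeR adjusted p = 0.00609) and -2.52 ± 0.73 in A1331852 (adjusted p = 0.0224). In A1331852 the call was lost without KO replicate 1 (adjusted p = 0.0701), KO replicate 2 (0.0765) or WT replicate 2 (0.0807), and without both libraries numbered 3 (0.0636). Of its exon length, 378 bases or 8.25% overlap LINC01500 on the same strand, where reads may be assigned to neither gene. No other member shares exons on its strand.

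Few of these genes were called between A1331852 and DMSO. In WT cells 0 of 9 tested members were called by edgeR, and 0 by DESeq2 and by limma voom, where 0.141% of genes were called in either direction, 0.105% lower and 0.0369% higher, with 3 members at an unadjusted p under 0.05. In KO cells 1 of 9, FZD2, was called lower and 0 higher, where 13.5% of genes were called in either direction, 7.08% lower and 6.46% higher. Only DMSO replicate 3 shared a batch with the treated libraries, so these changes lean on 1 DMSO library per genotype. FZD2 had 19.4, 19.9 and 29.1 CPM in KO A1331852 libraries, against 36.3 CPM in KO DMSO replicate 3 of the same batch and 40.1 and 38.9 in the DMSO libraries of batch 2. All treated libraries lay lower. It fell by 0.77 ± 0.18 on the log2 scale in KO cells (edgeR adjusted p = 0.0184). Without KO DMSO replicate 3 (adjusted p = 0.0843), KO A1331852 replicate 1 (0.0523) or replicate 2 (0.0635), and in batch 1 alone (-0.67, adjusted p = 0.348), the call was lost. In WT cells FZD2 had 26.3, 25.2 and 26.1 CPM in A1331852, against 40.1 in DMSO replicate 3 and 36.7 and 36.5 in batch 2, also with no overlap (-0.55 ± 0.18, edgeR adjusted p = 0.234). Without both A1331852 libraries numbered 3, which stood farthest from the rest of their groups, this passed (-0.56, adjusted p = 0.0482).

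WNT5A levels were higher in A1331852 than in DMSO in every library of both genotypes, with 9.91 to 14.2 CPM against 6.83 to 8.92 in KO cells and 11.5 to 24.7 CPM against 8.14 to 10.9 in WT cells, but the change was not called (KO 0.42 ± 0.30, edgeR adjusted p = 0.381; WT 0.71 ± 0.30, adjusted p = 0.345). FZD7 shows how batch enters: its mean CPM was 58.0 in WT A1331852 cells and 57.6 in WT DMSO cells, while the fitted change was 0.51 ± 0.18 because the batch 1 DMSO library had 38.6 CPM (adjusted p = 0.277). ROR1, ROR2 and RYK had log2 changes between -0.24 and 0.08 in either genotype, and none was called. The difference of the A1331852 response between genotypes, KO minus WT, was called for 0 of 9 members by edgeR, DESeq2 and limma voom, and 0 reached an unadjusted p under 0.05 in edgeR, where 0.295% of genes were called in either direction, 0.203% with a positive and 0.0923% with a negative difference. Its largest values with well-counted transcripts were -0.29 ± 0.34 for WNT5A and -0.22 ± 0.21 for FZD2, so a difference of this size could not be resolved.

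In A498, DACT1 was the member called between the groups. Of the 7 members tested, 1 was called lower in the libraries labelled SETD2 deficient and 0 higher (edgeR), where 30.2% of 15424 genes were called in either direction, 15.1% lower and 15.1% higher. DACT1 had 3 and 2 counts in the deficient libraries, against 16 and 20 in the add-back libraries, with no overlap. In A498 it passed the low-count filter only through the add-back libraries, where it was high, so this call is no support of its own. The depth-scaled level in add-back cells was 6.02 times that in deficient cells (95% exact interval 2.36 to 19.7). It fell by 2.56 ± 0.59 on the fitted log2 scale (edgeR adjusted p = 0.00516), and the call was lost without add-back replicate 2 (adjusted p = 0.0767). ROR1 had 28.3 and 30.6 CPM in the deficient libraries, against 21.5 and 24.2 in the add-back libraries, higher without overlap but short of the threshold (0.34 ± 0.14, adjusted p = 0.0868). It was called without deficient replicate 1 (0.40, adjusted p = 0.0169). DKK3 had 90.2 and 87.6 CPM in the deficient libraries, against 65.7 and 74.7 in the add-back libraries (0.32 ± 0.13, adjusted p = 0.0796), and it was called without deficient replicate 1 (adjusted p = 0.0402) or replicate 2 (adjusted p = 0.0156).

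The remaining members did not separate the A498 groups by the test. WNT5A had 12.8 and 10.3 CPM in the deficient libraries, against 12.9 and 13.4 in the add-back libraries (log2 change -0.21 ± 0.17, edgeR adjusted p = 0.394). RYK had 51.0 and 49.5 CPM in the deficient libraries, against 49.6 and 45.8 in the add-back libraries. FZD2 had 66.7 and 53.7 CPM in the deficient libraries, against 54.5 and 56.9 in the add-back libraries. These receptors overlapped between the groups, as did FZD7, with 56.3 and 49.97 CPM in the deficient libraries, against 53.3 and 50.9 in the add-back libraries. ROR2 had 0 and 3 counts in the deficient libraries, against 5 and 6 in the add-back libraries, and the depth-scaled level in add-back cells was 3.07 times that in deficient cells (95% exact interval 0.810 to 17.1), an interval that includes equality. WNT5B had 5 and 0 counts in the deficient libraries, against 2 and 2 in the add-back libraries. At this depth neither could be tested, and ROR2 made up 0.363% of ROR1 and ROR2 transcript per kilobase in deficient and 1.47% in add-back A498 cells.

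The change by SETD2 label was compared between lines, as KO against WT 786-O in DMSO minus deficient against add-back A498. This difference was called for 2 of 9 members, both lower (edgeR), where 13.2% of 17868 genes were called in either direction, 7.10% lower and 6.12% higher. For ROR1 it was -1.29 ± 0.24 (adjusted p = 0.00254), with ROR1 lower in KO than in WT 786-O cells and higher, short of the threshold, in the deficient than in the add-back A498 libraries. For WNT5B it was -4.61 ± 1.38 (adjusted p = 0.0376), but WNT5B had 9 counts in A498 in all, and without deficient replicate 1 the value was 0.24 (adjusted p = 0.852). The call held in 6 of 17 alternatives. For ROR2 it was -1.83 ± 1.09 (adjusted p = 0.306), which rests on 14 counts in A498 and was 2.32 without deficient replicate 2 (adjusted p = 0.645), so no direction is given. For DACT1 it was 0.33 ± 0.83 (adjusted p = 0.861).

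Other genes of the WNT pathways, 118 in 11 lists drawn up with earlier results known, moved both ways in KO cells. In DMSO 74 were tested, and 10 were called higher and 12 lower in KO cells (edgeR), where 18.5% of all genes tested were called, 8.29% higher and 10.2% lower. The median log2 change was -0.10, against -0.02 over all genes. In the list of other frizzleds and co-receptors 5 of 9 tested were lower and 0 higher, with a median of -0.57. MCAM, an adhesion molecule that can bind WNT5A, fell to 5.52 ± 0.34 CPM in KO cells, against 105.9 ± 13.2 in WT cells (SD, n = 3), a log2 change of -4.25 ± 0.19 (edgeR adjusted p = 2.02e-07). FZD3, a frizzled of the planar polarity arm, fell to 1.32 ± 0.48 CPM, against 4.46 ± 0.45 in WT cells, a log2 change of -1.80 ± 0.20. The only other ligand called was WNT3, a beta-catenin ligand, which fell by 0.97 ± 0.18. Among 12 planar polarity core genes tested, 1 rose and 1 fell: ANKRD6 rose by 0.67 ± 0.20 and PRICKLE1, a cytoplasmic polarity protein, fell by 1.66 ± 0.27, to 12.8 ± 3.5 CPM in KO cells, against 39.9 ± 1.5 in WT cells. Among 20 noncanonical effectors tested, 2 rose and 4 fell. NFATC1, a calcium-activated transcription factor, rose by 3.59 ± 0.59, with 0.722 ± 0.079 CPM in KO cells and 0.0550 ± 0.0148 in WT cells, and CAMK2D, a calcium-dependent kinase subunit, rose by 0.70 ± 0.21. NFATC1 passed the low-count filter only through KO libraries, where it was high, so its call is no support of its own. KIF26B, a kinesin whose degradation WNT5A and ROR receptors are known to drive, fell by 1.98 ± 0.26, with 8.28 ± 3.50 CPM in KO DMSO cells and a wide spread in WT DMSO cells (38.0 ± 25.6). MAPK8, which encodes JNK1, fell by 0.61 ± 0.12.

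The beta-catenin arm held calls in both directions too. SFRP4, a secreted frizzled-related antagonist, was the single tested gene of 13 other antagonists and rose by 2.38 ± 0.41 (edgeR adjusted p = 0.00215), with 26.8 ± 18.0 CPM in KO DMSO cells and 5.75 ± 5.19 in WT DMSO cells (SD, n = 3), a wide spread in both. LGR4, an R-spondin receptor, rose by 0.61 ± 0.13. TCF7L1, a TCF factor that mostly represses, had 1.72 ± 0.44 CPM in KO cells and 0.0838 ± 0.0947 in WT cells. CXXC4, an inhibitor of dishevelled, had 1.73 ± 0.15 CPM in KO cells and no count in the WT DMSO libraries. Both TCF7L1 and CXXC4 passed the low-count filter only through KO libraries, where they were high, so their calls are no support of their own. Of the 7 beta-catenin targets tested, TCF7 rose by 0.96 ± 0.15, CCND1 fell by 1.19 ± 0.26, to 281 ± 14 CPM in KO cells against 650 ± 61 in WT cells, and the other 5 were not called. In A1331852, 12 of the 74 were higher and 17 lower in KO cells, where 28.2% of all genes were called, 13.2% higher and 15.0% lower. MCAM again had the largest fall of its list (1.22 ± 0.16 CPM in KO cells and 53.4 ± 12.7 in WT cells). Among the genes named above for DMSO, SFRP4, KIF26B and CAMK2D were not called in A1331852. SFRP4 had means of 3.72 CPM in KO A1331852 cells and 4.45 in WT A1331852 cells (-0.28 ± 0.43, edgeR adjusted p = 0.676). KIF26B had 6.57 CPM in KO A1331852 cells and 7.55 in WT A1331852 cells (-0.20 ± 0.26, adjusted p = 0.617), and CAMK2D changed by 0.58 ± 0.21 (adjusted p = 0.0574).

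**Figure D4:**
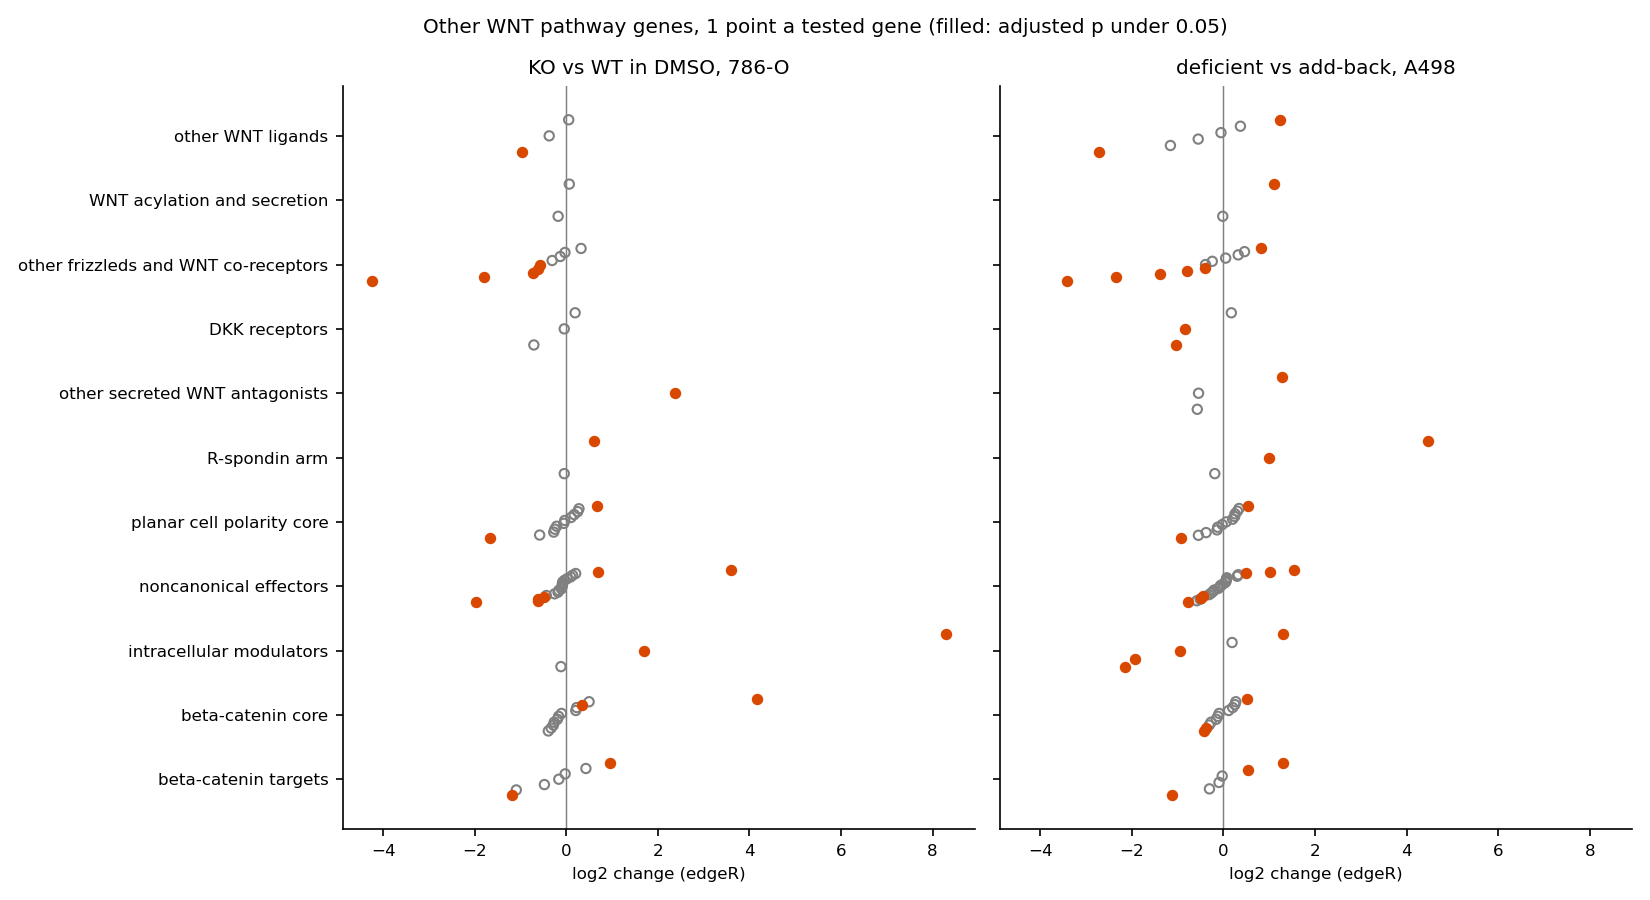
Fitted log2 change (edgeR) of the other WNT pathway genes, 1 point per tested gene and 1 row per list, for KO against WT 786-O in DMSO (left) and labelled deficient against add-back A498 (right), filled where the adjusted p was under 0.05. The frizzled and co-receptor row has 5 filled points left of 0 and 0 right of it in 786-O, and 5 left and 1 right of it in A498.

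In A498, 86 of the 118 pathway genes were tested, and 14 were called higher and 18 lower in the deficient libraries (edgeR), where 30.2% of all genes were called, 15.1% in each direction. The median log2 change was -0.09, against -0.01 over all genes. Of 11 frizzleds and co-receptors tested, 5 were lower and 1 higher. PTK7, a polarity co-receptor, fell to 0.939 ± 0.221 CPM in the deficient libraries, against 9.90 ± 1.60 in the add-back libraries (SD, n = 2), and FZD9 fell to 1.52 ± 0.12 CPM, against 7.71 ± 1.15. Both DKK co-receptors KREMEN1 and KREMEN2 were lower, by 1.04 ± 0.16 and 0.84 ± 0.16. LGR4, called higher in KO 786-O cells in both treatments, was higher in the deficient A498 libraries by 0.99 ± 0.15. SFRP4, called higher in KO 786-O cells in DMSO but not in A1331852, was higher in the deficient A498 libraries by 1.29 ± 0.15. RSPO3, a secreted R-spondin, had 2.59 ± 0.07 CPM in the deficient libraries and 0.108 ± 0.074 in the add-back libraries. RSPO3 passed the low-count filter only through the deficient libraries, where it was high, so its call is no support of its own. Of 5 dishevelled regulators tested, 3 were called lower and 1 higher. DACT3 (log2 change -1.94 ± 0.24) and NKD1 (-2.16 ± 0.32) were among the lower. CXXC4 was the higher one (1.31 ± 0.31), as it was in KO 786-O cells in both treatments. DACT3 had been called higher in KO 786-O cells in DMSO (1.71 ± 0.48) but not in A1331852 (1.02 ± 0.52). In 786-O, DACT3 passed the low-count filter only through KO libraries, so that call is no support of its own. The change by SETD2 label differed between the lines for 18 of 87 pathway genes tested, 8 with a positive and 10 with a negative difference, where 13.2% of all genes were called, 6.12% positive and 7.10% negative. PTK7 (3.57 ± 0.61) and DACT3 (3.62 ± 0.59) were among the positive and MCAM (-3.89 ± 0.29) and KIF26B (-3.54 ± 0.51) among the negative. Some of these rest on low levels in 1 line. PTK7 had means of 0.191 CPM in KO DMSO and 0.156 in WT DMSO cells and was not tested in 786-O alone. DACT3 had 1.15 CPM in KO DMSO and 0.358 in WT DMSO cells. KIF26B had 1.69 CPM in deficient and 0.569 in add-back A498 cells.

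Between A1331852 and DMSO, 8 of the 74 pathway genes were called higher and 8 lower in KO cells (edgeR), where 13.5% of all genes were called, 6.46% higher and 7.08% lower. In WT cells 0 were called, with 15 at an unadjusted p under 0.05, where 0.141% of all genes were called. The difference between the genotypes was called for 0, with 11 at an unadjusted p under 0.05, where 0.295% of all genes were called. Both genes of WNT acylation and secretion were called higher in KO cells. WLS, which carries WNTs to the cell surface, had 38.9 ± 2.6 CPM in KO A1331852 cells and 27.0 ± 1.8 in KO DMSO cells (log2 change 0.61 ± 0.13). PORCN, the acyltransferase, had 30.4 ± 3.9 CPM in KO A1331852 cells and 28.4 ± 6.9 in KO DMSO cells, means within their spread, while the change fitted with batch as a term was 0.67 ± 0.17. SFRP4 fell to 3.72 ± 1.62 CPM in KO A1331852 cells, against 26.8 ± 18.0 in KO DMSO cells, and MCAM to 1.22 ± 0.16 CPM, against 5.52 ± 0.34 (SD, n = 3). RHOB, a small GTPase, fell by 2.23 ± 0.44, and TCF7 rose by 1.58 ± 0.19.

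The genes whose levels followed ROR2 most closely over the 16 libraries were EIF4G3 (Pearson r of log2 CPM 0.987), OLFML2A (0.982) and CHRDL1 (0.981), among 17868 genes compared. For WNT5B they were CLSTN3 (0.955), PAQR7 (0.951) and REEP2 (0.933), and for DACT1 they were GALNS (0.943), DBNDD1 (0.926) and PTTG1IP (0.914). The libraries share lines, genotypes and batches, so these values are a description with no test.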

How the data were processed

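Polyadenylated RNA of 16 libraries was counted. The authors deposited 1 table of counts per library, made with featureCounts 1.5.0-p3 on GENCODE release 41 with strand setting 2, per the file headers. The build was GRCh38 and the aligner STAR, per the submitters' processing notes, which also name MultiQC 1.7 and DESeq2. The remaining steps are not given in the sources used here.

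Groups and replicate numbers came from the labels, and batches follow the prefixes of the library names. The members and the gene lists were chosen with earlier results of these data known. Counts were fitted over all genes with edgeR 4.0.16 in R 4.3.3 (quasi-likelihood test, TMM, filterByExpr with a minimum count of 10, batch as a term in 786-O), with Benjamini-Hochberg adjustment over all genes tested and a call at an adjusted p under 0.05. The 12 libraries of 786-O shared 1 fit, A498 had its own, and the difference between lines used all 16. The scripts were tested on simulated data. CPM used TMM factors over all 16 libraries, and log2 CPM a prior count of 2. Every member was named. Per comparison and pathway list, up to 2 called genes per direction with the smallest adjusted p were selected. The pathway genes named come from this selection, and not all selected genes are printed. For the 3 members with the widest range, the 3 most correlated genes were named. Lists were described by counts and medians only.

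Residuals of same-numbered KO and WT libraries correlated (0.561, 0.496 and 0.724 in DMSO, 0.243, 0.228 and 0.465 in A1331852), so these numbers were taken to pair KO with WT. Differently numbered DMSO libraries of batch 2 correlated as much (0.549 and 0.497), so in DMSO this also follows batch. The labels do not say what a number shares. DMSO and A1331852 libraries of 1 number did not correlate (-0.0492 to 0.0591), nor clearly did A498 (0.0872). Alternatives changed the normalization (DESeq2-type and upper-quartile factors), the filter, the tool (DESeq2 1.42.0, limma 3.58.1 voom), the batch term, the libraries fitted and the block, and left out each replicate. Count ratios have 95% exact intervals, and floors are 3 counts. Both cover counting error only. Protein sequences were not used here.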

Additional observations from a re-analysis of the deposited data

Results flagged for a closer look

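The change of ROR1 by SETD2 label differed between the lines, with a difference of -1.29 ± 0.24 on the log2 scale (786-O in DMSO minus A498, edgeR adjusted p = 0.00254). It sets KO against WT in 786-O beside deficient against add-back in A498, which are unlike manipulations. In A498 alone ROR1 was not called (adjusted p = 0.0868). KO 786-O cells had 18.5 to 26.5 CPM against 37.0 to 49.5 in WT cells, while the A498 libraries labelled deficient had 28.3 and 30.6 CPM against 21.5 and 24.2 in those labelled add-back. The call was kept in all 18 alternatives run, between -1.38 and -1.19. For WNT5B the same difference was -4.61 ± 1.38 (edgeR adjusted p = 0.0376), and it rests on 9 counts in the 4 A498 libraries. The SETD2 transcript itself did not separate the A498 labels, and its part in these differences was not tested.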

How the results depend on the processing

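Over 61 pairs of a tested member and a comparison, 998 alternative values were computed. Of these, 883 kept their direction and their side of the threshold, 66 were uncalled values that changed sign, 24 lost a call, 24 gained one, and 1 called value turned round: WNT5B in the difference between lines, 0.24 without A498 deficient replicate 1 and -5.58 without replicate 2. ROR2, ROR1 and WNT5B stayed called in KO against WT under every alternative that could be fitted, in both treatments, as did DACT1 in DMSO. These are refits of the same libraries and no independent evidence. WNT5B and DACT1 passed the low-count filter only through WT libraries, where they were high, so their kept calls are no support of their own. For KO against WT in DMSO the count of members called, 4, was 2 when genes averaging under 50 counts were left out, which drops WNT5B and DACT1, and 7 in batch 2 alone. In A1331852, 5 became 3 with that filter and 3 with only the libraries compared, and 3 to 5 on leaving out 1 library. For A1331852 against DMSO, 0 in WT became 1 without both A1331852 libraries numbered 3 (chosen after seeing the data), and 1 in KO became 0 in batch 1 alone and 0 to 1 on leaving out 1 library. In A498, 1 became 0 with the filter at 50, and 0 to 3 on leaving out 1 library. In the difference between lines, 2 became 1 with the filter at 50, 1 with limma voom, 1 with no batch term, and 1 to 2 on leaving out 1 library. With the replicate block, KO against WT gave 5 members in DMSO, where DKK3 joined, and 6 in A1331852, where WNT5A joined, and the block changed no other call there. The numbers do not pair A1331852 with DMSO libraries, nor clearly the A498 libraries. There the replicate block gave 3 for A1331852 in WT, 4 for A1331852 in KO and 2 in A498. Between lines, where the numbers pair KO with WT in the 786-O part only, it gave 3, and DKK3 joined (0.48 ± 0.15, edgeR adjusted p = 0.0351). Over all genes the counts moved far more, from 1490 with no batch term to 9276 in batch 2 alone for KO against WT in DMSO (3001 as reported), and from 0 in batch 1 alone or without WT DMSO replicate 3 to 2831 with the replicate block for A1331852 in WT (23 as reported). Causes were not tested. Depth limits WNT5B, DACT1 and DKK1, and ROR2 in A498.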
